A study of Mus musculus with 46 samples.

Results

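The genes described here were 9 transcription factors that direct early lineage choices: Otx2, Pax6, Pax3, Olig2, Neurog2, Gata4, Gata6, T and Eomes. They were chosen as named regulators of the germ layers and of the lineages that arise from them, 9 of 22367 protein-coding genes on chromosomes 1 to 19, X and Y. A gene was counted as carrying a mark when a ChIP-Seq peak overlapped its window, which ran from 5 kb before the gene to 5 kb past its end, by at least 1 bp.

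The libraries measured the replacement histone variant H3.3, H3 trimethylated at lysine 4 (H3K4me3) and H3 trimethylated at lysine 36 (H3K36me3) during the reprogramming of mouse embryonic fibroblasts (MEFs) into induced pluripotent stem cells (iPSCs). The MEFs came from embryos with an IRES-EGFP cassette knocked in behind Oct4, and retroviral Oct4, Sox2, Klf4 and c-Myc (OSKM) started the conversion. D0 was the fibroblasts on day 0 and D3 unsorted cells on day 3, whereas sorting on days 6 and 9 was by Thy-1 (T), a surface protein of fibroblasts, and on days 12 and 16 by SSEA-1 (S), an antigen of pluripotent cells. The successful route to iPSCs ran through D6T-, D9T-, D12S+ and D16S+, and the fractions called unsuccessful were D6T+ and D9T+ with D12S- and D16S-. H3K4me3 and H3K36me3 were profiled at the 7 stages D0, D3, D6T-, D9T-, D12S+, D16S+ and iPSCs. H3.3 was profiled at these stages, in the 4 unsuccessful fractions, in the mouse embryonic stem cell line ESD3, and in 4 libraries of a transdifferentiation towards hematopoietic progenitors by retroviral Scl, Lmo2, Bmi1 and Runx1 (SLBR): MEF on day 0, D4 on day 4, and end-point cells sorted with (cKit+) or without (cKit-) the receptor cKit. Per the study's methods, fibroblasts given SLBR were grown on inactivated OP9 stromal cells with a cocktail of cytokines. Whether stromal chromatin entered these libraries is not stated. With 1 library per group there was no replicate spread to measure a difference by, and no difference was tested. The cells were profiled in bulk, so fewer cells carrying a mark and less of the mark per cell cannot be told apart.

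H3K4me3 lies over active and poised promoters, and H3K36me3 is laid down over the bodies of genes that are being transcribed. H3.3 is placed into chromatin outside of replication, at active promoters, gene bodies and enhancers among other sites. Regulators of the germ layers are known in pluripotent cells as genes held silent yet marked with H3K4me3 together with H3K27me3. H3K27me3 was not measured in these libraries, so bivalency could not be told from these data.

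Peaks carried a score, the tags in the peak per 10 M tags of the library, and the window score is their sum, each peak counted by the share of it inside the window. Listed H3.3 peaks had a fold over input of at least 2, and those of the other marks of at least 4. A library without a peak had no called enrichment there, which is not a measured level of 0. The 30 libraries with peaks held 13.2 to 91.8 M tags. The share of tags in peaks ranged from 1.65% (cKit+) to 37.2% (D4) for H3.3, from 3.71% (D16S+) to 34.8% (D6T-) for H3K4me3, and from 1.07% (D12S+) to 42.4% (D9T-) for H3K36me3, and a low share leaves fewer peaks that can be called. Of 7 fibroblast markers, 7 carried H3K36me3 in D0 and 0 in iPSCs. Of 6 pluripotency markers, 0 carried it in D0 and 2 in iPSCs (summed score 31.1). The iPSC library of H3K36me3 held 2.88% of its tags in peaks and the D0 library 31.3%. How far this lowered the iPSC counts was not tested. H3.3 was called at 7 fibroblast markers in D0 (summed score 2833) and at 1 in iPSCs (36.8). The summed H3.3 score of the pluripotency markers was 76.8 in D0, 1193 in iPSCs and 1426 in ESD3. Of 5 hematopoietic markers, 2 carried H3.3 in cKit+ (summed score 19.3) and 3 in cKit- (60.0). Earlier in the same transdifferentiation, MEF had it in 2 (88.8) and D4 in 4 (289). D0 of the OSKM series had it in 3 (181).

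Short stretches before the start sites show where H3K4me3 lay without H3.3. RefSeq promoters were given for Otx2, Pax6, Olig2, Neurog2, T and Eomes (6 of 9 genes, 10 promoters), and Pax3, Gata4 and Gata6 had no entry. The 250 bases before each start were found in mm9 by exact match. In the lines that follow, capitals mark CpG dinucleotides and each sequence runs 5′ to 3′ on the plus strand, which is the strand of these genes.
Pax6 (chr2:105508803-105509052): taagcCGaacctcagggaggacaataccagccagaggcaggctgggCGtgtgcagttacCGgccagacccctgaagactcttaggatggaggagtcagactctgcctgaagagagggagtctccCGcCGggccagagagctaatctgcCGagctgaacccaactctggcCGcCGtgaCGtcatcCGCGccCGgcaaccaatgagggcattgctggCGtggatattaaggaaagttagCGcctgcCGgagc
Olig2 (chr16:91225545-91225794): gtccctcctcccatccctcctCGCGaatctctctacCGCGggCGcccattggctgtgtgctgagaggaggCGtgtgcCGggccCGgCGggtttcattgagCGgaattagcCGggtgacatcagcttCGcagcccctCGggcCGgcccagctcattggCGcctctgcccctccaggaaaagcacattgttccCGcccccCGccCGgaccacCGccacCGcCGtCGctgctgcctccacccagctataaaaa
Neurog2 (chr3:127335804-127336053): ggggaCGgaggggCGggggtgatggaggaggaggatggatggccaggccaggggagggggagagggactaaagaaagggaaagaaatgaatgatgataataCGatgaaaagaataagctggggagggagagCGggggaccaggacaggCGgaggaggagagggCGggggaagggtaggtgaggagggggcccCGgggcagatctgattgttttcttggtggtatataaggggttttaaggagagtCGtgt
T (chr17:8627038-8627287): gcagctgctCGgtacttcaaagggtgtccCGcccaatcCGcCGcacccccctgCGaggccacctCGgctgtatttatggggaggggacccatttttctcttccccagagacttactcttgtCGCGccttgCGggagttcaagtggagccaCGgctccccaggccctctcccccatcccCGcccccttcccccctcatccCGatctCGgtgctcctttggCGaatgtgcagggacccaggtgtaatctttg
Eomes (chr9:118387057-118387306): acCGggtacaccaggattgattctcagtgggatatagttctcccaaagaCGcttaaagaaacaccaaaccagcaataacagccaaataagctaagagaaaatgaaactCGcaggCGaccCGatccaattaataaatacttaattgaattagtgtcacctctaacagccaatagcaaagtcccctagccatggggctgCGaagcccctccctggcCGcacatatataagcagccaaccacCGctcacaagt

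The stretch before Olig2 held 22 CpGs, a number reached by 14.8% of 32851 RefSeq promoters, and an H3K4me3 peak covered it in 6 of 7 stages while no H3.3 library had a peak there. The Pax6 stretch held 15 CpGs (27.3% of promoters had as many) and the Eomes stretch 8 (43.0%), and both lay under H3K4me3 in all 7 stages and under H3.3 in 0 of 16 libraries. The T stretch held 14 CpGs (29.4%), with H3K4me3 in 4 stages (D0, D3, D12S+ and iPSCs) and again no H3.3. The Neurog2 stretch, also with 8 CpGs, was under H3K4me3 in all 7 stages and was the exception for H3.3, with a peak in iPSCs and in D4. Of the 10 promoters of these genes, 10 lay under H3K4me3 in at least 1 stage, 9 had no H3.3 peak in any library and 0 had H3K36me3. The 10 came from 6 genes, with 4 from Otx2. Shares over all promoters were not computed for these counts, so the counts do not set these promoters apart from others. The median promoter of the table held 6 CpGs.

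All annotated start sites were then taken, with a window from 250 bp before to 50 bp after each. Over the 63 pairs of 9 genes and 7 stages, H3K4me3 covered a start in 57 pairs (59.5% of such pairs over all genes), H3.3 in 5 (25.6%) and H3K36me3 in 0 (9.15%). The H3.3 pairs were Pax3 in D6T-, Pax6 in D9T-, D16S+ and iPSCs, and Neurog2 in iPSCs. D4 was the library with H3.3 over the starts of most of these genes, 5 of 9 (Pax6, Neurog2, Gata4, Gata6 and Eomes), beside 59% of all genes.

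**Figure D1:**
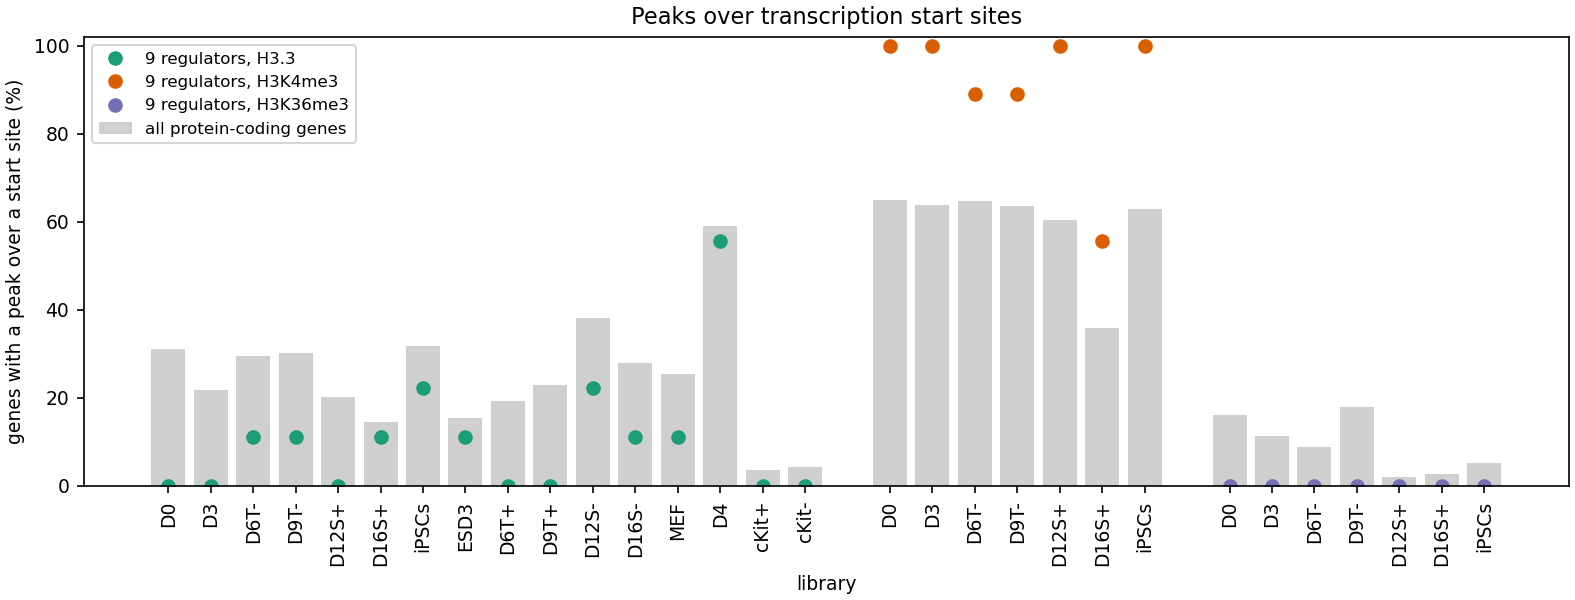
Share of genes (%) with a peak from 250 bp before to 50 bp after any annotated start site, in each library; dots stand for the 9 regulators, grey bars for all protein-coding genes. H3K4me3 dots lie above the bars in all 7 stages, while the H3.3 dots lie below the bars in all 16 libraries and the H3K36me3 dots lie at 0.

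In the wider gene windows, H3K4me3 was the mark these genes had in common. It was called in 61 of 63 pairs (69.4% over all genes), H3.3 in 27 (61.4%) and H3K36me3 in 5 (42.8%). H3K4me3 alone, without H3.3 or H3K36me3, was found in 32 of 63 pairs (9.95% over all genes), and all 3 marks in 3 (37.7%). H3K4me3 with H3.3 made up 24 pairs (19%). The shares of all genes include genes with no mark at all, so shares among genes with H3K4me3 are given too.

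In fibroblasts (D0), 6 of 9 genes had H3K4me3 alone (7.62% of all genes and 10.4% of those with H3K4me3): Otx2, Pax6, Olig2, Neurog2, T and Eomes. Gata4 had H3K4me3 and H3.3 (13.2% and 18%), and Pax3 and Gata6 had all 3 marks (49.7% and 67.8%). MEF, the other library of fibroblasts, was profiled for H3.3 only. Of the 6 genes with H3K4me3 alone in D0, MEF had H3.3 at Pax6 (8.35), Neurog2 (5.35), T (5.46) and Eomes (5.89). These were weak peaks, with folds over input of 2.23 to 3.03. The H3.3 library of MEF held 46.7 M tags and that of D0 27.0 M, and the part of this in the calls was not tested. Otx2 and Olig2 had none in MEF, where 59.1% of all genes had an H3.3 peak. H3K4me3 alone then held for 5 genes in D3 (9.63% of all genes, 13.5% of those with H3K4me3), 4 in D6T- (9.42% and 12.9%), 3 in D9T- (7.99% and 11.2%), then 6 in D12S+ (14.5% and 21%) and 5 in D16S+ (11% and 19.7%). H3K4me3 with H3.3 was found for Pax3, Neurog2 and Gata4 in D3 (14% and 19.7%), for these and Pax6 in D6T- (21.4% and 29.4%), and for these 4 and Eomes in D9T- (11.1% and 15.5%). In D12S+ it was found for Otx2, Pax6 and Gata4 (29% and 42%) and in D16S+ for Otx2, Pax6 and Gata6 (20.5% and 36.7%).

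All 3 marks were called in 0 of 9 genes at each of these 5 intermediate stages. The shares of all genes and of genes with H3K4me3 that had them were 44.5% and 62.5% in D3, 40.5% and 55.7% in D6T-, 48.8% and 68.2% in D9T-, and then 23.1% and 33.5% in D12S+ and 20.4% and 36.5% in D16S+. The H3K36me3 libraries of D12S+ and D16S+ held 1.07% and 1.99% of their tags in peaks. That of D6T- had a listed fragment length of 444 bp, beside 120 to 158 bp in the others of this mark. How far this lowered the counts of all 3 marks was not tested. Gata6 alone had H3K4me3 with H3K36me3 but no H3.3, in D3 and D9T-.

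In iPSCs, 3 genes had H3K4me3 alone (9.49% and 13.2%): Pax3, Olig2 and Gata6. H3.3 lay beside H3K4me3 in 5 others (23.8% and 33.1%), Otx2, Pax6, Neurog2, Gata4 and T, and Eomes had all 3 marks (37.2% and 51.7%). Olig2 was the gene in the state of H3K4me3 alone at all 7 stages, whereas T was the gene with none of the marks in D6T- and D16S+. The count of H3K4me3 alone in iPSCs depended on how H3.3 was called, with 6 in place of 3, beside 21.8% of all genes, when H3.3 peaks needed a fold over input of at least 4. The calls of all 3 marks rested on weak peaks: none was left in D0 or iPSCs when peaks below the median score of their library were dropped.

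**Figure D2:**
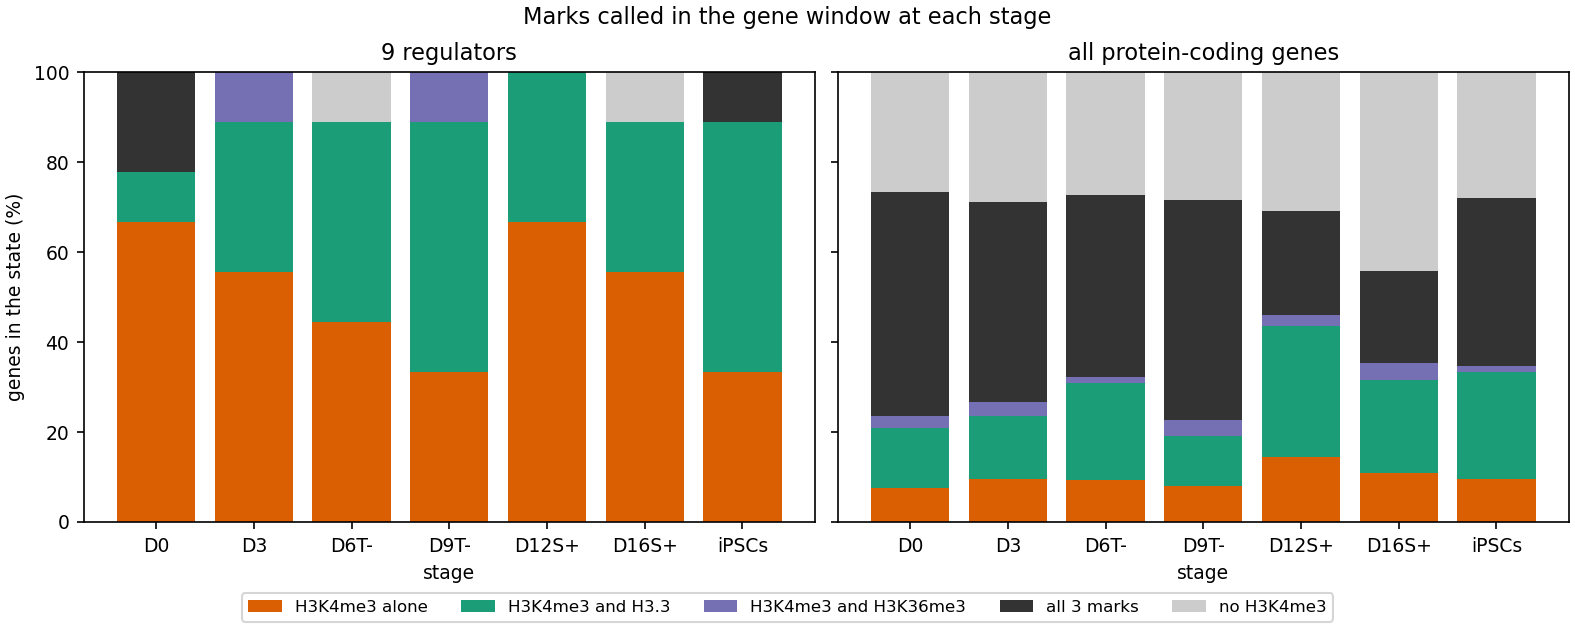
Share of genes (%) by the marks called in the gene window at each of 7 stages, for the 9 regulators and for all protein-coding genes. H3K4me3 alone covers 3 to 6 of the 9 regulators at each stage, and all 3 marks are found for 2 regulators in D0 and 1 in iPSCs.

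H3.3 was counted in the window of 3 genes in D0 (66.9% of all genes), 3 in D3 (62.8%), 4 in D6T- (65.2%) and 5 in D9T- (63.2%), then 3 in D12S+ (55.7%), 3 in D16S+ (49.9%) and 6 in iPSCs (66.2%). ESD3 had it in 7 genes (58.8%), all but Neurog2 and Gata6. The unsuccessful fractions D6T+ (58.5%) and D9T+ (60.1%) had it in Gata4 only, D12S- in 6 genes (67.9%) and D16S- in 3 (61.7%). MEF (59.1%) and D4 (75.9%) had it in 6 genes each, and cKit+ (40.7%) and cKit- (38.7%) in 0. Among the H3.3 libraries cKit+ and cKit- also had the smallest shares of tags in peaks (1.65% and 2.31%), and the part of this in their counts was not tested.

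**Figure D3:**
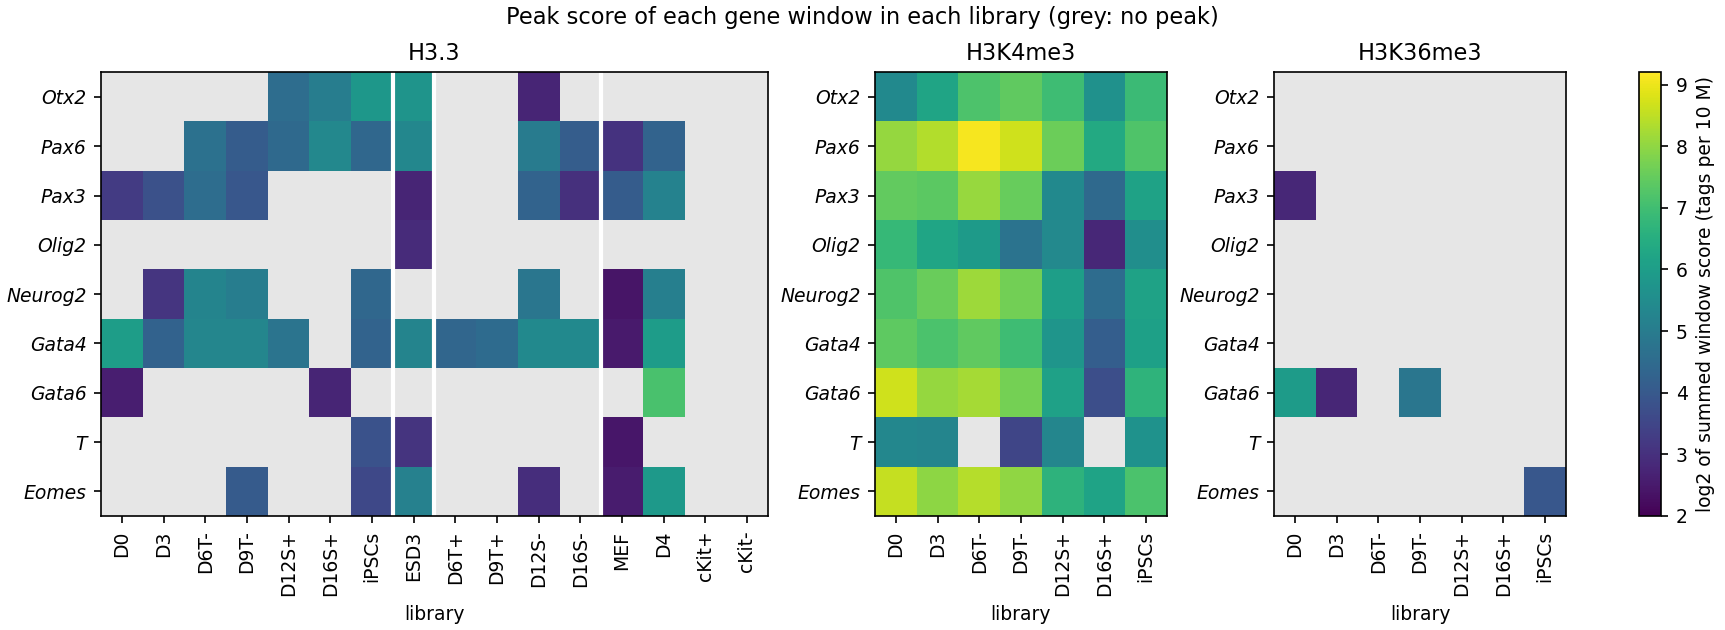
Window score of each gene in each library, as log2 of the summed tags per 10 M, for H3.3 (16 libraries), H3K4me3 (7) and H3K36me3 (7); grey cells had no peak. The H3K4me3 panel is filled except for T in D6T- and D16S+, and the H3K36me3 panel holds 5 filled cells.

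Otx2 (ENSMUSG00000021848.9, chr14:49277354-49287319 in mm9, minus strand) is a homeobox factor of the anterior neural plate that also acts as pluripotent cells leave their naive state. Its H3K4me3 window score was 42.8 in D0, 73.6 in D3, 146 in D6T- and 174 in D9T-, then 125 in D12S+, 50.0 in D16S+ and finally 119.5 in iPSCs. The D0 score had a 95% interval of 35.6 to 51.0 and the iPSC score of 108 to 131, which cover counting error only. Otx2 was thereby higher in iPSCs than in D0 by a ratio of 2.79 (log2 1.48). It was the gene of the 9 past 2-fold in this direction, in which 1.55% of 15382 genes with H3K4me3 in both libraries were, and its score went from the 10.8th to the 74.7th percentile of genes with a peak. The D0 peaks were weak, and Otx2 had none in D0 when each library was limited to the same number of top-scoring peaks.

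H3.3 in the Otx2 window was called in 5 of 16 libraries, with scores of 23.8 in D12S+, 32.9 in D16S+, 55.9 in iPSCs, 52.7 in ESD3 and 6.77 in D12S-. D0, D3, D6T-, D9T-, MEF and D4 had no peak. Most of it lay behind the gene, and D16S+ (7.20) and iPSCs (5.22) each had a weaker peak inside. The peak of iPSCs spanned 11.04 to 15.8 kb from the first start site, past the gene end at 9.97 kb, that of ESD3 11.2 to 14.1 kb and that of D12S+ 12.4 to 13.8 kb. A stretch of 139 bp, 3.74 to 3.88 kb past the gene end and inside no annotated gene, was shared by D12S+, D16S+, iPSCs and ESD3, and the D12S- peak reached into it. It is shown as the part common to the successful late stages and ESD3, with CpGs in capitals, on the minus strand that Otx2 is read from.
Otx2 downstream (chr14:49273475-49273613): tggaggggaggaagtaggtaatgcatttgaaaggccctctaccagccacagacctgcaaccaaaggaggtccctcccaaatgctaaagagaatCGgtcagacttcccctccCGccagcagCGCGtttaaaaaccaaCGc

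The 300 bp around this stretch held 8 CpGs, a number reached by 18.7% of 32387 segments shared by the H3.3 peaks of iPSCs and ESD3, whose median was 4. H3K4me3 covered the stretch in D9T- and in no other stage. Of the peaks that cover it, those of iPSCs (fold over input 3.39) and D16S+ (3.34) were lost when a fold of at least 4 was required, and those of D12S+ (6.26) and ESD3 (4.69) were kept.

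**Figure D4:**
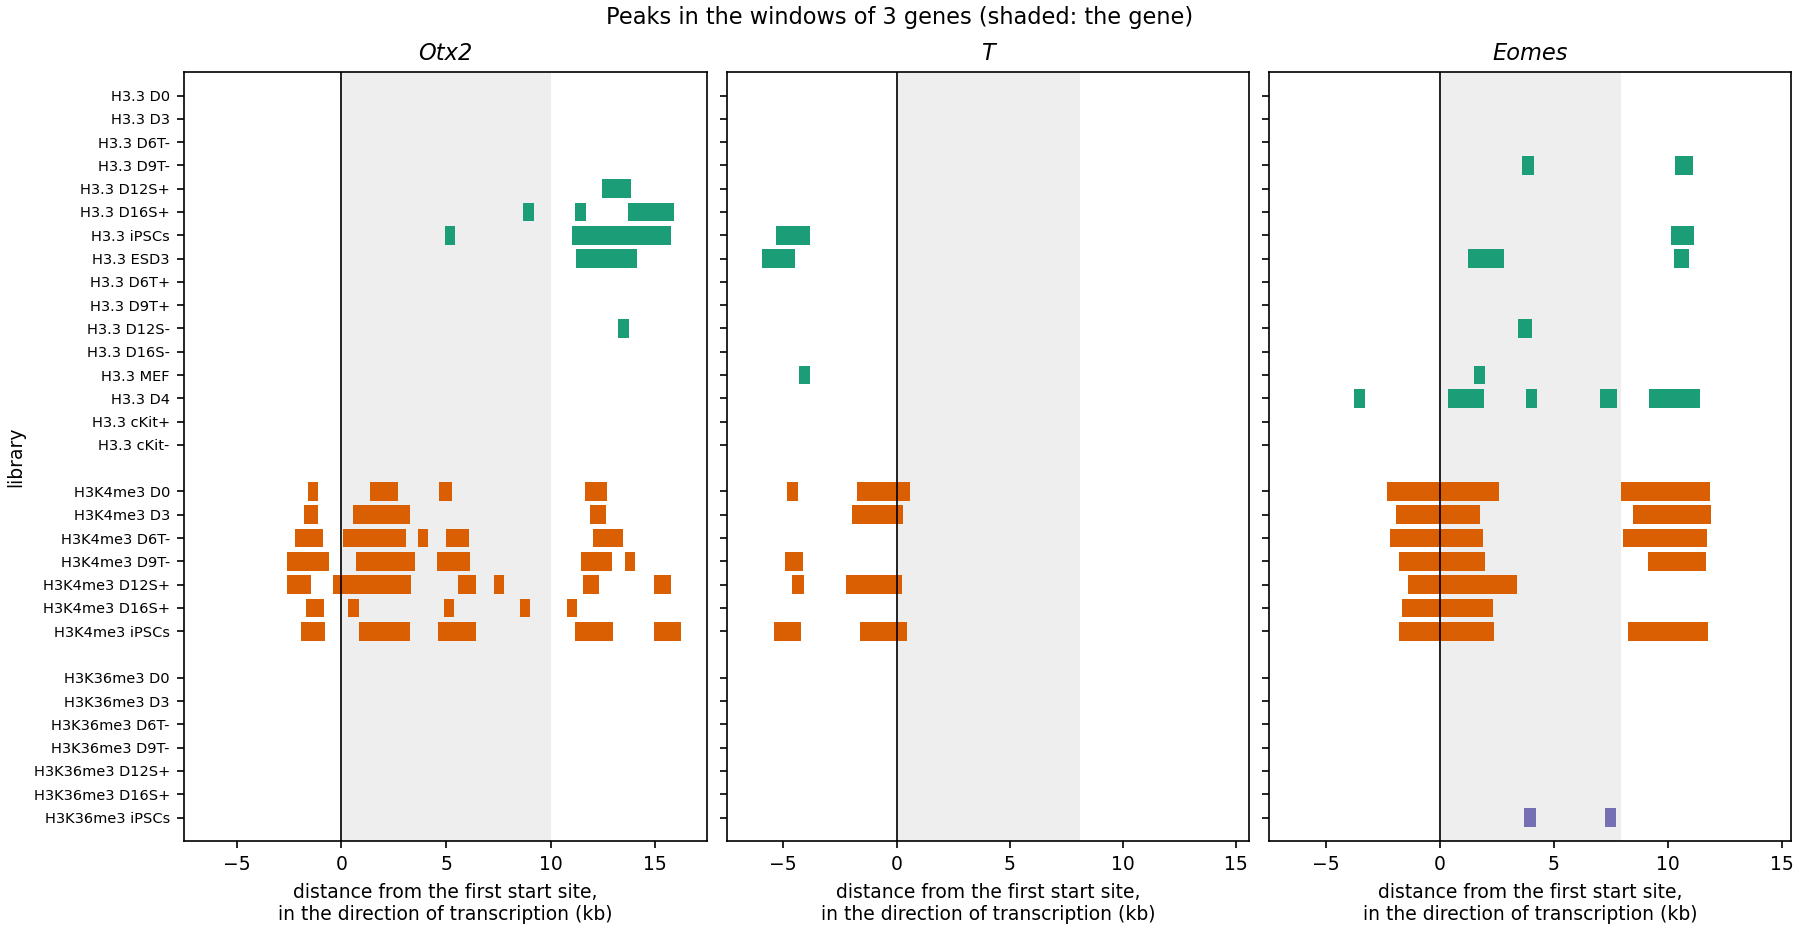
Peaks in the windows of Otx2, T and Eomes by distance from the first start site (kb, in the direction of transcription), with a row for each library; green is H3.3, orange H3K4me3 and purple H3K36me3, and the gene is shaded. H3K4me3 sits over the start of Eomes in 7 stages and of T in 4, while the longest H3.3 peaks of iPSCs and ESD3 begin 11.04 kb or more past the start of Otx2 and lie upstream of T. At Eomes both have a peak downstream, and the longer ESD3 peak lies inside the gene.

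Pax6 (ENSMUSG00000027168.12, chr2:105509053-105543317, plus strand), the homeobox factor of eye and forebrain, had the highest H3K4me3 score of the 9 genes in 6 stages, all but D0. In D16S+ and iPSCs its 95% counting intervals (69.8 to 99.0 and 137 to 163) overlapped those of Eomes (60.0 to 87.3 and 132 to 157). The Pax6 score was 266 in D0, 333 in D3, 549 in D6T- and 407 in D9T-, then 192 in D12S+, 83.4 in D16S+ and finally 149.8 in iPSCs, and the ratio of iPSCs to D0 was 0.56. H3K4me3 lay in 5 to 7 blocks along the first 23 kb, over several of its 29 annotated start sites. The window also holds Pax6os1 and part of Elp4, so a peak there need not belong to Pax6. H3.3 was called in 10 of 16 libraries, with 25.6 in D6T- and 17.0 in D9T-, then 22.0 in D12S+, 41.0 in D16S+ and 21.4 in iPSCs, and neither D0 nor D3 had it. Elsewhere it was 40.0 in ESD3, 31.7 in D12S-, 17.3 in D16S-, 8.35 in MEF and 19.7 in D4. In iPSCs and ESD3 the stronger peak lay inside the gene at 22.5 to 23.7 kb and at 22.0 to 24.0 kb from the first start. H3K36me3 was called at no stage.

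Neurog2 (ENSMUSG00000027967.7, chr3:127336054-127338549, plus strand), a proneural basic helix-loop-helix factor, had H3K4me3 scores of 149 in D0, 188 in D3, 285 in D6T- and 202 in D9T-, then 65.8 in D12S+, 23.4 in D16S+ and finally 71.6 in iPSCs. Its main H3K4me3 peak covered the start in all 7 stages. H3.3 was called in 7 libraries, with 8.71 in D3, 38.3 in D6T-, 33.2 in D9T-, 21.4 in iPSCs, 28.2 in D12S-, 5.35 in MEF and 34.6 in D4. In D3, D6T-, D9T-, iPSCs, D12S- and D4 a peak lay in the 3′ part of this short gene, from 1.15 to 1.77 kb after the start onwards. D0, D12S+ and D16S+ of the successful route had none.

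Olig2 (ENSMUSG00000039830.8, chr16:91225795-91228922, plus strand), which directs motor neuron and oligodendrocyte fate, had H3K4me3 scores of 113 in D0, 75.9 in D3, 60.3 in D6T- and 26.9 in D9T-, then 41.9 in D12S+, 6.96 in D16S+ and finally 47.5 in iPSCs. In D16S+ the remaining peak lay 5.004 kb downstream of the start and none covered it. H3.3 was called in 1 of 16 libraries, ESD3, where a peak of the shortest length scored 7.40 from -4.45 to -3.95 kb of the start. No H3K36me3 was called. Against the median gene with H3K4me3 at all 7 stages, Olig2 stood at 0.49 in D0, 0.15 in D9T- and 0.53 in iPSCs.

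Pax3 (ENSMUSG00000004872.9, chr1:78097842-78193709, minus strand), a paired-box factor of dorsal neural tube, neural crest and muscle precursors, had H3K4me3 scores of 179 in D0, 166 in D3, 275 in D6T- and 185 in D9T-, then 42.9 in D12S+, 22.1 in D16S+ and finally 70.5 in iPSCs. The H3.3 scores were 9.46 in D0, 13.7 in D3, 23.8 in D6T- and 15.4 in D9T-, and no H3.3 peak was called from D12S+ to iPSCs. It was 19.7 in D12S-, 8.05 in D16S-, 17.1 in MEF and 36.9 in D4. From D3 to D9T-, and in D12S-, D16S-, MEF and D4, an H3.3 peak lay just before the start and ended 0.157 to 0.490 kb short of it. The 3 marks called in D0 did not lie together: H3.3 was 67.4 kb and H3K36me3 79.8 kb into the gene, each in an intron, and the H3K36me3 peak scored 6.92. ESD3 had a single intronic H3.3 peak of 6.71.

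Gata6 (ENSMUSG00000005836.8, chr18:11052508-11085633, plus strand), a zinc-finger factor of primitive endoderm and later endoderm, had the highest H3K4me3 score of the 9 genes in D0. Its 95% counting interval in D0 (388 to 434) overlapped that of Eomes (360 to 405). The Gata6 score was 410.4 in D0, 267 in D3, 297 in D6T- and 208 in D9T-, then 69.4 in D12S+, 13.3 in D16S+ and finally 102.5 in iPSCs, a ratio of iPSCs to D0 of 0.25. A single peak of 8.14 kb over the start made up 386 of the D0 score, and in D16S+ the remaining peak lay upstream and none covered the start. H3K36me3 was called over Gata6 in D0 (61.5), D3 (6.85) and D9T- (28.6), more often than over any other of the 9 genes, and lay in the body and at its 3′ end. H3.3 was 6.12 in D0 and 6.67 in D16S+, each from a single peak of the shortest length. D4 stood apart with 6 H3.3 peaks and a score of 141, the highest H3.3 score of any of the 9 genes, where D4 also had the most H3.3 peaks of all libraries (108179). The lincRNA 1010001N08Rik overlaps the window.

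Gata4 (ENSMUSG00000021944.8, chr14:63817759-63890529, minus strand), a zinc-finger factor of endoderm and heart like Gata6, had H3K4me3 scores of 171 in D0, 143 in D3, 174 in D6T- and 125 in D9T-, then 54.1 in D12S+, 17.7 in D16S+ and finally 68.5 in iPSCs. Its window carried H3.3 in 13 libraries, more than that of any other of the 9 genes. In D0, D9T-, D12S+, D6T+ and D9T+ these peaks all lay outside the gene itself. On the successful route H3.3 scored 64.4 in D0, 19.3 in D3, 39.2 in both D6T- and D9T-, then 27.4 in D12S+ and 19.7 in iPSCs. Outside that route it scored 38.2 in ESD3, 20.9 in D6T+ and 22.8 in D9T+, then 42.9 in D12S- and 43.1 in D16S-, 5.78 in MEF and 62.7 in D4. In 11 of these libraries, all but ESD3 and MEF, a peak began 75.6 to 77.4 kb from the first start and lay past the gene end. The next gene, Neil2, is 5.38 kb past that end, and in D6T-, D9T-, D12S+ and iPSCs, among others, the peak reached into Neil2. A peak there need not belong to Gata4. This downstream peak was the strongest H3.3 peak of the Gata4 window in each of the 11 libraries but D0, which had one of 33.8 upstream of the gene. Peaks within Gata4 itself were called in D3, D6T-, iPSCs, ESD3, D12S-, D16S-, MEF and D4, with scores of 4.55 (D4) to 15.5 (ESD3). A downstream H3K4me3 peak, 70.2 in D0 and 28.1 in iPSCs, overlapped the downstream H3.3 peak in both and also reached into Neil2.

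T (ENSMUSG00000062327.3, chr17:8627288-8635361, plus strand), or Brachyury, is the T-box factor of the primitive streak and nascent mesoderm. Its H3K4me3 score was 40.3 in D0, 38.8 in D3, 11.4 in D9T-, 39.9 in D12S+ and 51.0 in iPSCs, with no peak in D6T- and D16S+. The ratio of iPSCs to D0 was 1.27, at the 96.6th percentile of the ratios of all genes. The 95% counting intervals of iPSCs (43.7 to 58.9) and D0 (33.4 to 48.4) overlapped. H3.3 was called upstream in iPSCs (14.1), ESD3 (8.48) and MEF (5.46), counted inside the window. The peaks of iPSCs and ESD3 crossed the window edge, and as whole peaks they scored 18.0 and 24.7, the reverse order. The peaks of iPSCs and ESD3 shared, inside the window, the 500 bp that ended 4.50 kb before the start, in no annotated gene, where H3K4me3 was called in D0, D9T-, D12S+ and iPSCs. The middle 300 bases are printed for this pairing of iPSCs with ESD3, on the plus strand and with CpGs in capitals.
T upstream (chr17:8622388-8622687): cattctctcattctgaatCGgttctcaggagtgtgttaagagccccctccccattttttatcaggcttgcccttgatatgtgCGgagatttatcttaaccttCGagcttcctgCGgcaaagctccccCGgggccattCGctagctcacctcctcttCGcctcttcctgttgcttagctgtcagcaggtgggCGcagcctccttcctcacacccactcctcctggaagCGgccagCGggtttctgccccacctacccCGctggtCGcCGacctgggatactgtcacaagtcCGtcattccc

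Eomes (ENSMUSG00000032446.8, chr9:118387330-118395250, plus strand), the T-box factor of definitive endoderm and early mesoderm, had H3K4me3 scores of 382 in D0, 253.5 in D3, 340 in D6T- and 259 in D9T-, then 101 in D12S+, 72.7 in D16S+ and finally 144 in iPSCs. It was split into a block over the start (188 in D0, 82.9 in iPSCs) and a block past the gene end (193 in D0, 61.3 in iPSCs), and the second was not called in D12S+ and D16S+. H3.3 was called in D9T- (16.9), iPSCs (11.9), ESD3 (35.9), D12S- (7.68), MEF (5.89) and D4 (59.1). The H3.3 peaks of D9T-, iPSCs and ESD3 shared 588 bp at 2.41 to 3.00 kb past the gene end, inside no annotated gene and under the second H3K4me3 block of 5 stages. The middle of that stretch is printed because the downstream block was where H3.3 and H3K4me3 met.
Eomes downstream (chr9:118397807-118398106): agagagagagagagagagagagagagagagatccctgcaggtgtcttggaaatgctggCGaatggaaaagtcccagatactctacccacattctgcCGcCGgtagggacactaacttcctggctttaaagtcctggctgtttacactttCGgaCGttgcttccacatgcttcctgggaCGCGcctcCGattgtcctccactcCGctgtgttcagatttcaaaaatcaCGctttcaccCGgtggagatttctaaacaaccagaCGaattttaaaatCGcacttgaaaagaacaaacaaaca

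The Eomes stretch held 13 CpGs and the T stretch 14 in 300 bp, numbers reached by 6.63% and 5.62% of the segments shared by iPSCs and ESD3. Eomes was also the gene with H3K36me3 in iPSCs, from 2 peaks of 7.62 and 7.83 in exons.

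At the 7 stages, 31 of 50 H3.3 peaks in the windows overlapped an H3K4me3 peak of the same stage, beside 28.4% over all genes with H3K4me3, and 0 of 9 H3K36me3 peaks did, a count too small to set apart from the 5.37% over all genes. The H3.3 peaks were short, with a median of 0.663 kb over 113 peaks in 16 libraries, of which 48 had the shortest length. The 207 H3K4me3 peaks had a median of 1.43 kb.

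H3K4me3 scores of most genes were lower in iPSCs than in D0, and the 9 genes are best read beside that. The median ratio of iPSCs to D0 was 0.390 over 15382 genes. Of the 9 genes, 6 were lower past 2-fold (Pax3, Olig2, Neurog2, Gata4, Gata6 and Eomes, with ratios of 0.25 to 0.48), where 71.9% of all genes were, and Pax6, Otx2 and T were not. The median gene with a peak at all 7 stages scored 232 in D0, 276 in D6T-, 28.8 in D16S+ and 89.4 in iPSCs. Relative to this gene, Otx2 stood at 0.18 in D0, 0.40 in D3, 0.53 in D6T- and 0.95 in D9T-, then 1.75 in D12S+, 1.74 in D16S+ and finally 1.34 in iPSCs. T stood at 0.17 in D0 and 0.57 in iPSCs, Gata6 at 1.77 and 1.15, and the other 6 genes within 0.49 to 1.68 at these 2 ends. The stage with the highest H3K4me3 score was D6T- for Pax6, Pax3, Neurog2 and Gata4 (74.5% of the 11881 genes with a peak at all 7 stages, to which T does not belong), D0 for Olig2, Gata6 and Eomes (22.4%), D9T- for Otx2 (0.901%) and iPSCs for T (1.90%). D6T- was also the H3K4me3 library with the largest share of tags in peaks and D16S+ the one with the smallest, and the part of this in the scores was not tested. Some of these highest stages were close calls. For Gata4 the 95% counting intervals of D6T- (160 to 188) and D0 (156 to 187) overlapped, as did those of iPSCs and D0 for T.

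**Figure D5:**
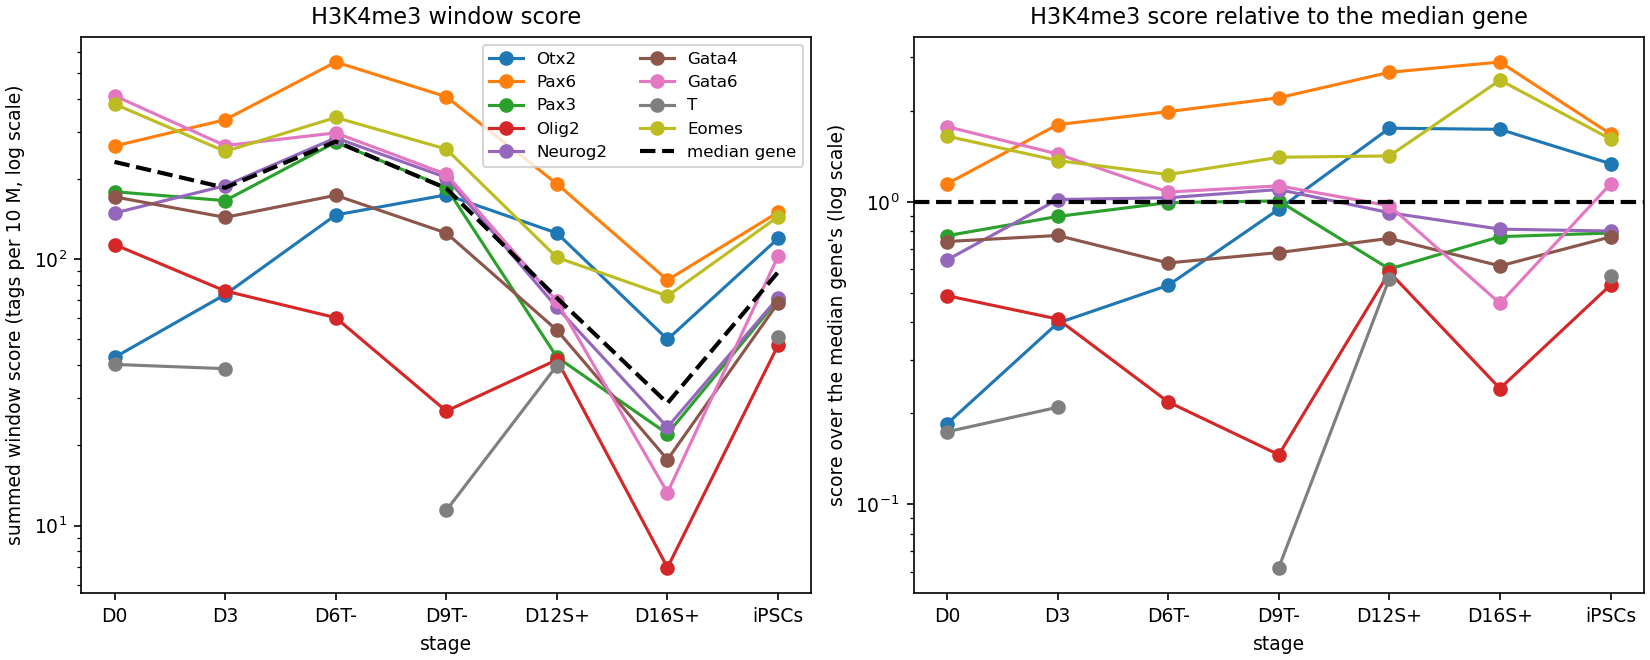
H3K4me3 window score (tags per 10 M, left) and the same score divided by that of the median gene (right) at 7 stages, both on log axes, with a line for each gene and a dashed line for the median gene; gaps are stages without a peak. Otx2 moves from 0.18 of the median gene in D0 to 1.34 in iPSCs, while Olig2 has its own lowest value, 0.15, in D9T-.

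Among 58 further lineage regulators, a list drawn up of neural, neural crest, mesoderm and endoderm genes, H3K4me3 alone was found for 39 in D0 (7.62% of all genes) and 28 in iPSCs (9.49%). All 3 marks were found for 7 in D0 (49.7%) and 4 in iPSCs (37.2%). At any stage they were found for 8: Irx5, Tbx6, Hand1, Nkx6-2, Emx2, En1, Mixl1 and Sox10. No share over all genes was computed for that last count. H3.3 was called in 18 of the 58 regulators in D0 (66.9% of all genes), 29 in iPSCs (66.2%) and 34 in ESD3 (58.8%), the last a share near that of all genes. H3K36me3 was called in 8 in D0 (55.1%) and 5 in iPSCs (39.9%). Their median H3K4me3 ratio of iPSCs to D0 was 0.460, beside 0.390 over all genes. Of the 57 with H3K4me3 in both, 32 were lower past 2-fold (71.9% of all genes) and 0 higher (1.55%). By call or no call in the 30 libraries, Otx2 was most like Foxd3 (28 the same), Pax3 like En1 (27), Neurog2 like Lhx5 (28) and Gata6 like Sox17 (25). Pax6 was most like Atoh1, Gbx2 and Tcf15 (28 each), Gata4 like Hes5, Irx5 and Lhx5 (26 each), and Eomes like Gsc, Nkx2-2 and Pou3f2 (27 each). Olig2 (29) and T (27) had 4 genes tied, Gata5 among them for both.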

How the data were processed

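Peak lists of 30 ChIP-Seq libraries were used. The submitters' processing notes name STAR, HOMER and the mm9 build, and versions are not given in the sources used here. The deposited lists hold HOMER peaks that, per the file headers, were made in histone style for each library alone, with 16 inputs as background. The normalized tag count is a signal that the authors scaled to 10 M tags, without length correction or input subtraction. The deposited fold over input is a linear ratio of tags, at least 2 for H3.3 and 4 for the other marks. The p-value against input is the authors' own, limited to 0.0001 and unadjusted.

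Peaks were overlapped with GENCODE vM1 genes (mm9) in Python 3.11.15 after a check on simulated peaks. Window scores carry 95% exact Poisson intervals of their tags, for counting error only. With 1 library per group no test was made, and percentages beside the counts give all genes, a description. The members and lists were chosen with earlier results of these data known. The start-site windows and the H3.3 stretches shared between libraries were chosen after seeing the data. All 9 members are named. Of the wider list (58 of 60 genes matched), those with all 3 marks and, per member, the gene with most equal calls are named. Promoters came from RefSeq (GRCm38.p6) and were placed on mm9 by sequence, and sequences by coordinates were read from mm9.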

Additional observations from a re-analysis of the deposited data

How the results depend on the processing

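H3K4me3 alone in D0 stayed within 6 to 8 genes, and in 31 to 44 of the 63 gene and stage pairs, under the 7 other ways of calling peaks or windows. The share of all genes with H3K4me3 alone in D0 did not stay: it was 7.62% as reported, 16.6% within 2 kb of start sites and 18.1% with equal numbers of peaks, and 6.78% to 10.8% under the others. With the gene body only, all 3 marks in iPSCs went to 0 and H3.3 in ESD3 to 4 genes. Gata4 then had H3K4me3 alone in D0, D9T- and D12S+. Within 2 kb of start sites, all 3 marks went to 0 in D0 and 0 in iPSCs, H3K4me3 alone in iPSCs to 6, H3.3 to 15 pairs, H3K36me3 to 0 pairs and H3.3 in ESD3 to 2. With equal numbers of top-scoring peaks (25637 of H3.3, 19633 of H3K4me3, 12322 of H3K36me3), all 3 marks went to 0 in both, H3.3 to 16 pairs, H3K36me3 to 0 pairs and genes higher past 2-fold to 0, because Otx2 then had no D0 peak. With H3.3 fold over input of at least 4, H3K4me3 alone in iPSCs was 6, all 3 marks in iPSCs 0 and H3.3 pairs 17. With peaks at or above the median score, all 3 marks were 0 in D0 and in iPSCs, H3K36me3 pairs 2 and genes higher past 2-fold 0, again without a D0 peak of Otx2. By covered base pairs, 3 genes (Pax3, Olig2 and Gata4) were lower past 2-fold. For the rest the cause was not tested. Without D6T-, D12S+ and D16S+, added after seeing the data, H3K4me3 alone held in 17 of 36 pairs (8.68% over all genes). Flanks of 10 kb moved 3 of 50 counts and the midpoint rule 0 of 50. No paired analysis was possible because each group had 1 library. RefSeq gene positions were not run, being of another build. Depth limits what can be called: in D16S+, with 3.71% of H3K4me3 tags in peaks, a missing peak may lie under the calling limit.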
